A study of Homo sapiens with 10 samples.

Results

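The genes described here encode the subunits of the respiratory chain and of ATP synthase, in ESI017, a human embryonic stem cell line with a wild-type genotype per the labels. Members were chosen by symbol, in 2 sets that are reported apart. The mitochondrial set held the 13 mRNAs of the mitochondrial genome. The nuclear set held symbols that begin with NDUFA, NDUFB, NDUFC, NDUFS or NDUFV followed by a number, the 4 SDH genes, and symbols that begin with UQCR, with COX4 to COX8, or with ATP5F, ATP5M or ATP5P. Of 35940 counted symbols, 194 were members, 13 mitochondrial and 181 nuclear. The nuclear members were 85 genes, 95 pseudogenes and 1 read-through transcript, ATP5MF-PTCD1. The filter on low counts was passed by 93 members: all 13 mitochondrial mRNAs, 78 nuclear genes, the read-through transcript and 1 pseudogene, UQCRFS1P1.

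Cells were seeded 24 h before treatment and stayed in mTeSR1, a defined medium for pluripotent cells, throughout. The 5 groups of 2 libraries were untreated cells (called mTeSR1), cells given WNT3A, the secreted ligand that activates canonical WNT signalling, at 300 ng/ml for 6 h or for 18 h, and cells given CHIR99021, an inhibitor of the kinase GSK3, at 8 µM for 6 h or for 18 h. The experiment was done as 2 biological repeats. Replicate numbers 1 and 2 stand for repeats 1 and 2 in all groups except CHIR99021 18 h, which was run in repeat 2 alone, so both of its libraries come from that repeat. The labels list no time for mTeSR1 and no solvent control for CHIR99021, so an effect of either cannot be told apart from the treatment. RNA was selected on poly-T beads, which bind the poly(A) tails that most mitochondrial mRNAs also carry. Nothing in the labels says that the 2 libraries of a group are separate cultures beyond the repeat, so p-values measure only the spread between these libraries. The design asks how these cells respond over time to the ligand and to a block of GSK3.

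Oxidative phosphorylation is run by 5 complexes of the inner mitochondrial membrane. Complexes I (NADH dehydrogenase), III (cytochrome bc1) and IV (cytochrome c oxidase) pump protons as electrons pass to oxygen. Complex II (succinate dehydrogenase) feeds in electrons without pumping, and complex V (ATP synthase) uses the proton gradient to make ATP. Complex II is encoded in the nucleus alone, while the other complexes combine subunits from both genomes, so that their assembly needs matched supply from nucleus and mitochondrion. The mitochondrial genome is transcribed from both strands as long precursors that are then cut, and the level of each mRNA depends on processing and decay as well as on transcription. Pluripotent stem cells are known for high glycolysis beside a working respiratory chain. In RNA from whole cultures, fewer cells of a type and less RNA per cell cannot be told apart.

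Pairs of mitochondrial mRNAs share bases, and this limits how far their reads can be divided. MT-ATP8 and MT-ATP6, which encode the mitochondrial subunits 8 and a of ATP synthase, overlap by 46 bases on the reference mitochondrial genome of GRCh38 (chrM:8527-8572), which is 22.2% of MT-ATP8 and 6.75% of MT-ATP6. MT-ND4L and MT-ND4, which encode membrane subunits of complex I, overlap by 7 bases (chrM:10760-10766). Each pair is known to be carried on a shared mRNA. The last 60 bases of the upstream gene are shown for both pairs, 5′ to 3′ on the plus strand, with the bases that belong to both genes in capitals.
MT-ATP8 to MT-ATP6, chrM:8513-8572: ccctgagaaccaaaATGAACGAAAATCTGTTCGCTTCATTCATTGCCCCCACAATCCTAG
MT-ND4L to MT-ND4, chrM:10707-10766: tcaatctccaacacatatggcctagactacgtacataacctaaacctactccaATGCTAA

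Library totals lay between 16648336 and 26732910 estimated counts. The second libraries of mTeSR1 and of WNT3A 6 h stood apart from the other 8 in being poor in short transcripts. Across the 80 tested nuclear members, Spearman's rho between a library's deviation from the member's mean level and the length of the member's longest transcript was 0.50 and 0.45 in these 2 libraries and between -0.42 and -0.12 in the other 8. Those values are descriptions, taken over genes that share their libraries. Every comparison with mTeSR1 or with WNT3A 6 h uses a depleted library, so the main values of each are also given without both, from fits in which the lone library of a group is assumed to vary like the other groups. Markers of pluripotent cells were present in all libraries, with POU5F1 at 561 to 1789 CPM (counts scaled to a common library size by trimmed means of M-values) and SOX2 at 233 to 380 CPM. Summed levels were 22.3 to 35.8 CPM for 9 muscle markers, with MYOG at 0 throughout. They were 396 to 691 CPM for 9 fibroblast markers, most of it COL1A1, COL1A2 and THY1, with DCN at 0 throughout, and 216 to 368 CPM for 8 neural markers, most of it TUBB3.

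The 13 mitochondrial mRNAs took between 2.70% and 6.73% of a library's counts, and the nuclear members between 0.477% and 0.816%. In repeat 1 the mitochondrial share was 3.94% in mTeSR1, 4.51% after 6 h and 2.70% after 18 h of WNT3A, and 3.71% after 6 h of CHIR99021. In repeat 2 it was 6.73% in mTeSR1 and 5.37% after 6 h of WNT3A, which are the depleted libraries, 4.10% after 18 h of WNT3A, 5.02% after 6 h of CHIR99021, and 5.12% and 5.14% after 18 h of CHIR99021. WNT3A 18 h thus had the lowest mitochondrial share of both repeats. The nuclear share was 0.533% and 0.477% in the depleted libraries and 0.708% to 0.816% in the other 8, so the groups without a depleted library overlapped. The ratio of mitochondrial to nuclear counts was 12.6 and 11.2 in the depleted libraries and 3.57 to 6.79 in the others.

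**Figure D1:**
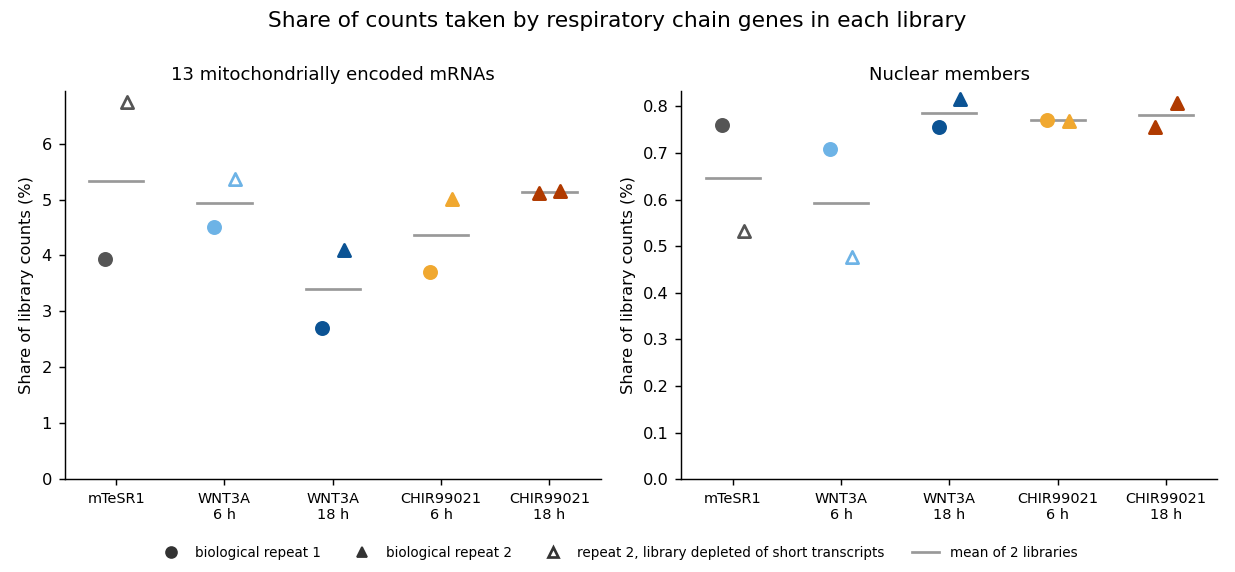
Share of library counts, in percent, taken by the 13 mitochondrially encoded mRNAs (left) and by all nuclear members (right). Each point is 1 library, circles are repeat 1 and triangles repeat 2, open triangles are the 2 libraries depleted of short transcripts, and grey lines are means of 2 libraries. The mitochondrial share is lowest in WNT3A 18 h within each repeat, at 2.70% and 4.10%, and the nuclear share is lowest in the 2 depleted libraries.

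Among the mitochondrial mRNAs, levels per kilobase of transcript, averaged over the 10 libraries, ran from 632 to 9349 CPM per kilobase. MT-CO1 was the highest and MT-ATP8 the lowest. The mRNAs of cytochrome c oxidase, MT-CO1, MT-CO3 and MT-CO2, which encode the catalytic core of complex IV, led at 9349, 7543 and 6358 CPM per kilobase, and together held 48.6% to 58.9% of mitochondrial counts. MT-ATP6 followed at 5501 CPM per kilobase. MT-CYB, the only mitochondrial subunit of complex III, stood at 2676 CPM per kilobase. The 7 mRNAs of complex I were lower than MT-ATP6, with MT-ND4 at 3813, MT-ND1 at 2960, MT-ND2 at 2527, MT-ND5 at 1469, MT-ND3 at 1349, MT-ND6 at 1316 and MT-ND4L at 1096 CPM per kilobase. By comparison, the nuclear members with the highest level per kilobase in each complex were ATP5F1B, the catalytic beta subunit of ATP synthase, at 456, NDUFS5, an accessory subunit of complex I, at 280, UQCRH, the hinge protein of complex III, at 217, COX8A, a small subunit of complex IV, at 212, and SDHD, a membrane anchor of complex II, at 45.4 CPM per kilobase. Every mitochondrial mRNA therefore exceeded every nuclear member on this scale.

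**Figure D2:**
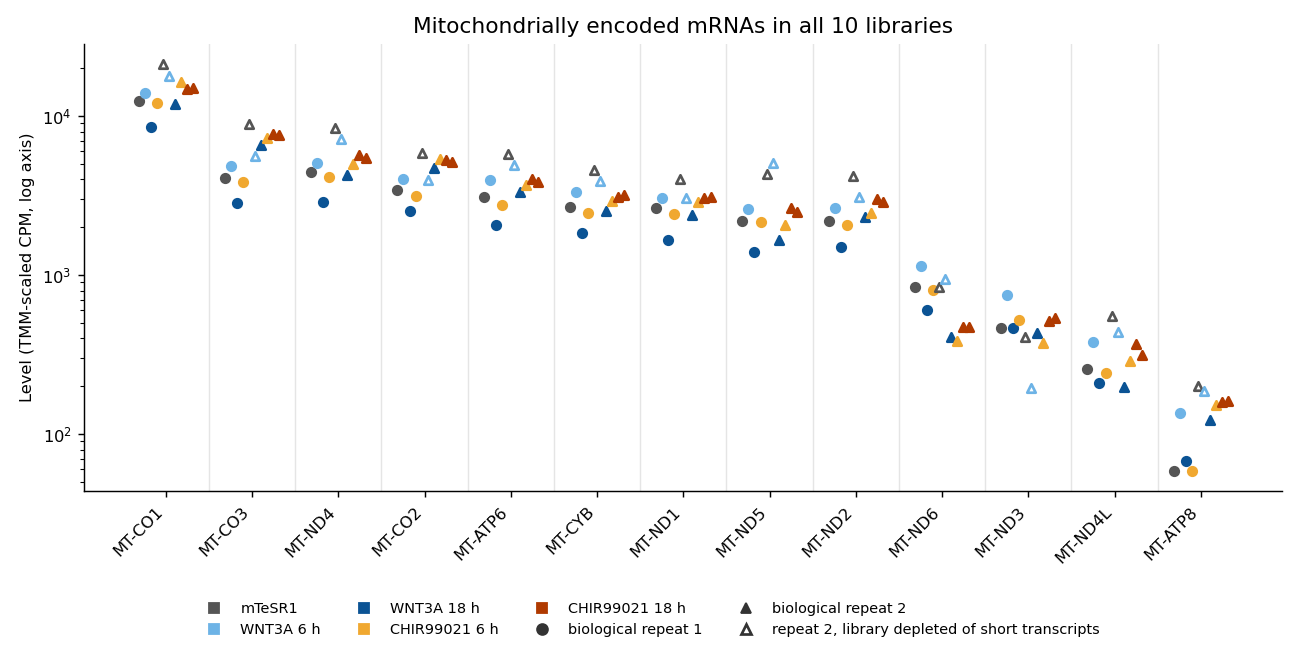
Levels of the 13 mitochondrially encoded mRNAs in all 10 libraries, as CPM on a log axis, ordered by mean level. Colours are groups, circles are repeat 1, triangles are repeat 2, and open triangles are the 2 depleted libraries. The filled dark blue symbols of WNT3A 18 h lie lowest within their repeat for 11 of 13 mRNAs in repeat 1, and MT-ND6 lies lower in repeat 2 than in repeat 1 outside the depleted libraries.

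After 6 h of WNT3A, no member passed the test at an adjusted p (false discovery rate, FDR) under 0.05 in edgeR. The count was 0 of 93, against 0.433% of all 15251 symbols tested, and 0 members had an unadjusted p under 0.05. The median log2 change against mTeSR1 was -0.00 for the mitochondrial and -0.14 for the nuclear members, beside 0.01 over all symbols. Without the depleted libraries the medians were 0.28 and -0.07. Leaving out single libraries moved the mitochondrial median from -0.42 without mTeSR1 replicate 1 to 0.395 without mTeSR1 replicate 2. The repeats differed here. Within repeat 1, where neither library is depleted, all 13 mitochondrial mRNAs were higher after 6 h of WNT3A, with ratios from 0.17 to 1.22 and a median of 0.29 on the log2 scale, against 49.5% of all symbols that were higher. Within repeat 2, where both libraries are depleted, 11 of 13 were lower, with a median of -0.25. MT-CO1, the core catalytic subunit of cytochrome c oxidase, stood at 12460 and 21166 CPM in mTeSR1 and at 14014 and 17818 CPM after 6 h of WNT3A, so the groups overlapped (log2 change -0.08, FDR 1.00). MT-ATP8 stood at 58.6 and 201 CPM in mTeSR1 and at 137 and 187 CPM after 6 h. With both depleted libraries left out and the repeat as a block, a fit chosen after seeing the data, MT-ATP8 was higher by 1.21 (SE 0.17, FDR 0.029), against 0.583% of symbols called higher. That fit rests on 1 library each of mTeSR1 and WNT3A 6 h, which are assumed to vary like the other groups.

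After 18 h of WNT3A, the mitochondrial mRNAs were lower than in mTeSR1 and the nuclear members were on balance higher, and in the fit without a block none of the 93 passed the test. The background was 2.1% of all symbols called, 159 higher and 161 lower. The median log2 change was -0.72 for the mitochondrial members, 12 of 13 of them below 0, and 0.28 for the nuclear members, 73 of 80 of them above 0, beside 0.02 over all symbols. At an unadjusted p under 0.05 there were 8 mitochondrial and 4 nuclear members. Leaving out single libraries moved the mitochondrial median from -1.07 without mTeSR1 replicate 1 to -0.29 without mTeSR1 replicate 2, with -0.48 without WNT3A 18 h replicate 1. DESeq2 called 2 mitochondrial members lower, MT-ND4L and MT-ND5, against 3.11% of all symbols that it called lower, and 1 nuclear member higher, NDUFS4, against 2.14% higher. The repeats pair the libraries, and with the repeat as a block edgeR called 5 mitochondrial mRNAs lower, against 2.86% of all symbols lower, and NDUFS4 higher, against 2.07% higher.

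The 5 mitochondrial mRNAs called with the block come from complexes I, III, IV and V. They are named because they were called, and the mTeSR1 library of repeat 2 is the depleted one. MT-ND4, a proton-pumping subunit of complex I, was at 4474 CPM in mTeSR1 and 2877 CPM after 18 h of WNT3A in repeat 1. In repeat 2 it was at 8444 and 4277 CPM. The log2 change was -0.82 with the block (SE 0.16, FDR 0.025) and -0.85 without it (FDR 0.27). MT-CO1 was at 12460 and 8541 CPM in repeat 1 and at 21166 and 11851 CPM in repeat 2, in mTeSR1 and WNT3A 18 h respectively. Its log2 change was -0.70 with the block (SE 0.14, FDR 0.027) and -0.72 without it (FDR 0.31). MT-ND1, which encodes a subunit near the quinone site of complex I, was at 2660 and 4019 CPM in mTeSR1. It was at 1673 and 2388 CPM after 18 h (-0.71 with the block, FDR 0.039, and -0.72 without it, FDR 0.20). MT-CYB, at 2672 and 4562 CPM in mTeSR1 and 1847 and 2535 CPM after 18 h, gave -0.70 with the block (FDR 0.040). MT-ATP6, at 3092 and 5801 against 2075 and 3316 CPM, gave -0.70 with the block (FDR 0.045), and its groups overlapped. Without it the FDR was 0.25 for MT-CYB and 0.39 for MT-ATP6.

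The remaining mitochondrial mRNAs did not pass in either edgeR fit of this comparison. MT-ND5, a proton-pumping subunit, was at 2178 and 4318 CPM in mTeSR1 and at 1403 and 1661 CPM after 18 h (log2 change -1.08 without the block, FDR 0.20). MT-ND4L was at 256 and 553 CPM in mTeSR1 and at 210 and 197 CPM after 18 h (-0.99, FDR 0.17). Leaving out mTeSR1 replicate 1, so that the depleted library stood alone for mTeSR1, gave it a log2 change of -1.46 (FDR 0.039), and leaving out the depleted library gave -0.34 (FDR 0.77). MT-ND3 stood at 463 and 411 CPM in mTeSR1 and at 464 and 434 CPM after 18 h, and its log2 change was 0.04 (FDR 0.98). MT-ATP8, with 58.6 and 201 CPM against 67.7 and 123 CPM, went opposite ways in the 2 repeats.

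Since mTeSR1 replicate 2 is depleted of short transcripts and had the highest level of 10 of the 13 mitochondrial mRNAs in its repeat, the comparison was repeated without it. Within repeat 1 alone, 11 of 13 mitochondrial mRNAs were lower after 18 h of WNT3A than in mTeSR1, with a median log2 ratio of -0.53, against 49.6% of all symbols. When both repeats were required, which uses the depleted mTeSR1 library again, 11 of 13 were lower in each, against 28.6% of symbols. With both depleted libraries left out and no block, the median log2 change was -0.29, 3 of 13 mRNAs were above 0, and none passed the test, against 0.821% of symbols called. With both left out and the repeat as a block, 8 of 13 were called lower, against 1.34% of symbols (MT-ATP6, MT-CO1, MT-CO2, MT-CO3, MT-CYB, MT-ND1, MT-ND4 and MT-ND5). In that fit the log2 change was -0.53 for MT-CO1 (SE 0.08, FDR 0.0082), -0.60 for MT-ND1 (SE 0.10, FDR 0.014) and -0.56 for MT-ND4 (SE 0.10, FDR 0.023). MT-ND2, MT-ND3, MT-ND4L, MT-ND6 and MT-ATP8 did not pass. This blocked fit was chosen after seeing the data. It rests on 1 library of mTeSR1, assumed to vary like the other groups. Its SE and FDR values therefore do not measure the spread of mTeSR1, and its calls are not independent support for a fall.

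From 6 h to 18 h of WNT3A, all 13 mitochondrial mRNAs had a negative log2 change, with a median of -0.72. The median was -0.55 without the depleted libraries and -0.42 without WNT3A 18 h replicate 1 alone. None of 93 members passed edgeR without a block, against 0.144% of all symbols, and 6 mitochondrial and 9 nuclear members had an unadjusted p under 0.05. DESeq2 called MT-ND4L, MT-ND5 and MT-ND6 lower, against 1.88% of all symbols that it called lower. In repeat 1 all 13 were lower at 18 h, with log2 ratios from -1.01 to -0.67 and a median of -0.86, against 50.6% of all symbols. In repeat 2, where the 6 h library is depleted, 10 of 13 were lower and the ratios ran from -1.62 to 1.15. MT-ND5 was at 2600 and 5098 CPM after 6 h and at 1403 and 1661 CPM after 18 h, and with the repeat as a block its log2 change was -1.26 (SE 0.25, FDR 0.047), against 1.26% of all symbols called lower. Without a block the value was -1.33 (FDR 0.20). MT-ND3 went opposite ways in the repeats, at 748 CPM after 6 h and 464 CPM after 18 h in repeat 1 and at 195 CPM in the depleted 6 h library and 434 CPM after 18 h in repeat 2. A fit with both depleted libraries left out and the repeat as a block was again chosen after seeing the data. It rests on 1 library of WNT3A 6 h, assumed to vary like the other groups, so it does not measure the spread at 6 h. In it the log2 changes of the mRNAs other than MT-ND3 ran from -0.62 for MT-CO2 to -1.13 for MT-ATP8, with MT-CO1 at -0.70.

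With CHIR99021 for 6 h, the mitochondrial mRNAs stayed close to mTeSR1 in repeat 1 and lay below the depleted mTeSR1 library in repeat 2. None of 93 members passed edgeR, against 0.0197% of all symbols, none reached an unadjusted p under 0.05, with no call by DESeq2. The median log2 change of the 13 was -0.43, but within repeat 1 it was -0.08, with ratios from -0.16 to 0.18. In repeat 1, 11 of 13 were lower, against 49.4% of symbols, by small amounts. MT-CO1 was at 12460 CPM in mTeSR1 and 12127 CPM after CHIR99021, and MT-ND4 at 4474 and 4113 CPM. Without both depleted libraries the median was 0.05 and 9 of 13 were above 0.

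With CHIR99021 for 18 h, whose comparisons carry the repeat as a block, the mitochondrial median against mTeSR1 was -0.37 and the nuclear median 0.53, beside 0.02 over all symbols. None of 93 members passed edgeR, against 2.78% of all symbols. Comparisons with mTeSR1 share its libraries, so their values are not independent of each other. At an unadjusted p under 0.05 there were 4 mitochondrial and 29 nuclear members, and DESeq2 called 7 of 80 nuclear members higher, against 2.62% of all symbols that it called higher. Both CHIR99021 18 h libraries can be set beside a single mTeSR1 library of their repeat, the depleted one, and 12 of 13 mitochondrial mRNAs were lower in both, against 40.9% of symbols. Leaving out single libraries moved the mitochondrial median from -0.51 without mTeSR1 replicate 1 to -0.05 without mTeSR1 replicate 2. With the depleted libraries left out the medians were -0.09 and 0.00, 4 of 13 and 40 of 80 members were above 0, and no member passed, against 0.616% of symbols called. MT-CO1 was at 14900 and 14922 CPM after 18 h of CHIR99021, between the 2 mTeSR1 libraries, with a log2 change of -0.38 (SE 0.15, FDR 0.20). From 6 h to 18 h of CHIR99021 the mitochondrial median was 0.04 and 0 of 93 members passed, against 0.00656% of symbols. No mitochondrial and 1 nuclear member reached an unadjusted p under 0.05, with no call by DESeq2.

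WNT3A and CHIR99021 can be set side by side at matched times. At 18 h all 13 mitochondrial mRNAs were higher with CHIR99021 than with WNT3A, with log2 differences from 0.16 to 0.55 and a median of 0.38, but none of 93 members passed edgeR, 0.0% of all symbols did, 2 mitochondrial and 0 nuclear members reached an unadjusted p under 0.05, with no call by DESeq2. Both CHIR99021 18 h libraries were above the WNT3A 18 h library of repeat 2 for all 13, against 32.7% of all symbols, and neither of these groups has a depleted library in repeat 2. MT-ND1 was at 2388 CPM with WNT3A in repeat 2 and at 3061 and 3082 CPM with CHIR99021 (log2 difference 0.45, SE 0.17, FDR 1.00). MT-ND5 was at 1661 CPM with WNT3A and at 2632 and 2500 CPM with CHIR99021. Its log2 difference was 0.47 (SE 0.26), which did not pass. With no block and the depleted libraries left out it was 0.75, which did not pass either. With the depleted libraries left out, the difference for MT-ND5 was 0.70 (SE 0.09, FDR 0.047), against 0.00641% of symbols called higher. At 6 h, CHIR99021 against WNT3A gave a mitochondrial median of -0.42, which was -0.29 without the depleted libraries, and 0 calls of 93 members, against 0.00656% of symbols. At an unadjusted p under 0.05 there were 2 mitochondrial and 3 nuclear members, and DESeq2 called none. In repeat 1 all 13 were lower with CHIR99021 than with WNT3A at 6 h, by a median of 0.37 on the log2 scale, against 51.0% of symbols.

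**Figure D3:**
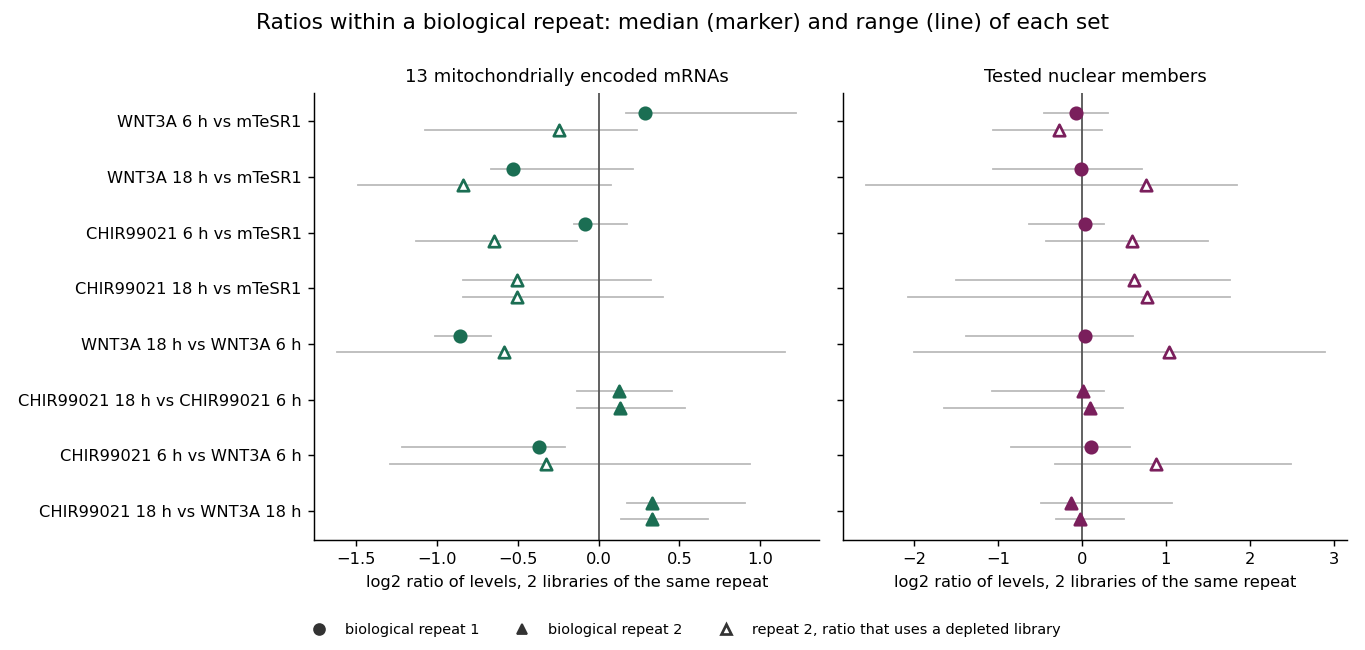
Log2 ratios between libraries of the same biological repeat for the 13 mitochondrially encoded mRNAs (left) and the tested nuclear members (right). Markers are set medians and lines run from the lowest to the highest member. Circles are repeat 1, triangles repeat 2, and open triangles are ratios that use a depleted library. In repeat 1 the mitochondrial median is -0.86 for WNT3A 18 h against 6 h and 0.29 for WNT3A 6 h against mTeSR1, while nuclear medians that use no depleted library lie between -0.13 and 0.11.

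Mitochondrial mRNAs also differed between the biological repeats, and not all in the same direction. In the blocked fit, repeat 2 was higher than repeat 1 for 5 of the 13 (MT-ATP6, MT-ATP8, MT-CO1, MT-CO3 and MT-ND4), against 2.31% of symbols called higher, and lower for 10 of the 80 nuclear members, all of complex I, against 3.59% called lower. Leaving out either mTeSR1 library ended all of these calls. The mitochondrial calls came to 4 or 5 without a WNT3A 6 h library, 3 without a WNT3A 18 h library, 1 without a CHIR99021 6 h library and 2 without a CHIR99021 18 h library. The nuclear calls came to 0 without a WNT3A 6 h library, 20 without a WNT3A 18 h library, and 1 to 3 without a CHIR99021 library. Without both depleted libraries, the median log2 difference of repeat 2 against repeat 1 was -0.06 in nuclear complex I, with 15 of 36 above 0. It was -0.0036, 0.08, 0.08 and 0.12 in nuclear complexes II, III, IV and V. With both depleted libraries left out, 9 mitochondrial mRNAs were higher in repeat 2, against 2.78% of symbols, and MT-ND6 was lower, against 2.83%. MT-CO3 gave a log2 difference of 1.06 (SE 0.08, FDR 0.00025) and MT-ATP8 1.12 (SE 0.12, FDR 0.0050).

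MT-ND6, a subunit of complex I, is the only mRNA of the mitochondrial set encoded on the minus strand of the reference (chrM:14149-14673), and it is made from the light-strand transcript. In repeat 1 it was at 840 CPM in mTeSR1, 1139 CPM after 6 h of WNT3A, 600 CPM after 18 h of WNT3A and 805 CPM after 6 h of CHIR99021. In the 4 libraries of repeat 2 that are not depleted it was at 409 CPM after 18 h of WNT3A, 386 CPM after 6 h of CHIR99021, and 471 and 472 CPM after 18 h of CHIR99021. Outside the depleted libraries the log2 difference of repeat 2 against repeat 1 was -0.81 (SE 0.11, FDR 0.013). MT-ND6 took 2.16% to 2.48% of mitochondrial counts in repeat 1 and 0.785% to 1.00% in those 4 libraries. Whether counting used strand is not stated in the labels, and reads of MT-ND6 and of the transcript opposite it may not have been separated. The depleted libraries were at 844 CPM in mTeSR1 and 943 CPM after 6 h of WNT3A, within the range of repeat 1, and MT-ND6 took 1.22% and 1.67% of their mitochondrial counts.

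The 2 sets differed in the libraries depleted of short transcripts. Of the 80 tested nuclear members, 67 were lower in both depleted libraries than in all 8 others, against 17.5% of all symbols, and of the 13 mitochondrial mRNAs none was. Conversely, 8 of the 13 were higher in both depleted libraries than in all others, against 16.6% of symbols, and 1 of 80 nuclear members was. Within the nuclear set the gap between repeats was larger for short transcripts. In mTeSR1 the median log2 ratio of repeat 2 to repeat 1 was -0.90 for the 25 nuclear members whose longest transcript is under 1000 bases and -0.33 for the 31 over 2000 bases, and in WNT3A 6 h it was -1.05 and -0.50. Of the 31 long ones, 25 were lower in repeat 2 in each of these groups, so the shift was not confined to short transcripts. Its cause was not tested. In WNT3A 18 h and CHIR99021 6 h, without a depleted library, the medians over all 80 were 0.12 and -0.04. Short mitochondrial mRNAs did not share a direction: MT-ND3 (346 bases) was at 411 and 195 CPM in the depleted libraries and 374 to 748 CPM elsewhere, while MT-ATP8 (207 bases) was at 201 and 187 CPM and 58.6 to 162 CPM elsewhere. MT-ATP8 carries the overlap printed above.

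**Figure D4:**
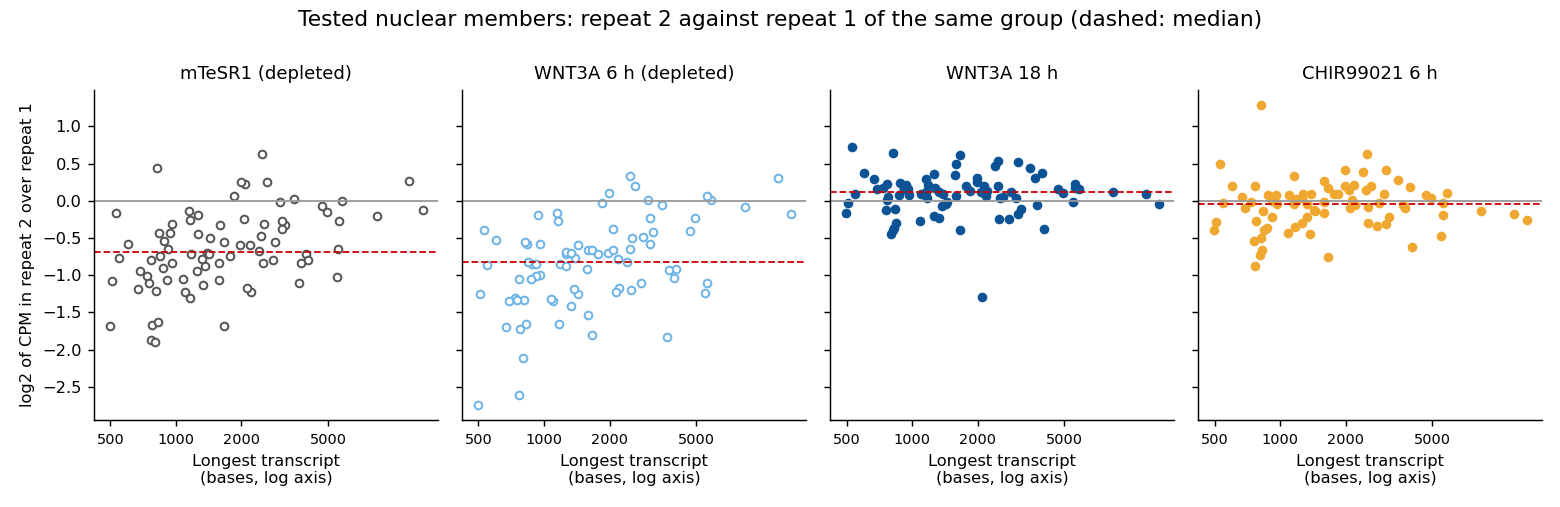
Log2 ratio of repeat 2 to repeat 1 for the 80 tested nuclear members in the 4 groups with both repeats, against the length of the longest annotated transcript in bases on a log axis. Dashed lines are medians, at -0.68 in mTeSR1, -0.83 in WNT3A 6 h, 0.12 in WNT3A 18 h and -0.04 in CHIR99021 6 h. In the panels with a depleted library (open symbols) the lowest ratios belong mostly to short transcripts.

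Ratios within repeat 1, which use no depleted library, gave the nuclear set medians near 0. After 6 h of WNT3A 54 of 80 members were lower than in mTeSR1, against 50.2% of all symbols, with a median log2 ratio of -0.06. After 18 h of WNT3A 43 of 80 were lower, against 49.6%, with a median of -0.01, and after 6 h of CHIR99021 45 of 80 were higher, against 50.3%, with a median of 0.04. In repeat 2, against the depleted mTeSR1 library, 75 and 76 of 80 were higher after 18 h of WNT3A and 6 h of CHIR99021, with medians of 0.76 and 0.59. Between the groups of repeat 2 that are not depleted, CHIR99021 at 18 h lay below WNT3A at 18 h in both of its libraries for 44 of 80 members, against 34.3% of all symbols.

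The nuclear members of complex I (36 genes, all tested) hold the catalytic core, such as NDUFS7, which carries the last iron-sulfur cluster before the quinone, and accessory subunits such as NDUFS5, NDUFB7 and NDUFS4. Their median log2 change against mTeSR1 was 0.24 after 18 h of WNT3A and 0.42 after 18 h of CHIR99021, and without the depleted libraries it was -0.06 and -0.04. NDUFS5 was at 182, 158, 166 and 174 CPM in repeat 1 (mTeSR1, WNT3A 6 h, WNT3A 18 h and CHIR99021 6 h) and at 107 and 86.6 CPM in the depleted libraries against 153 to 176 CPM in the rest of repeat 2. NDUFB7 was at 43.1 to 47.0 CPM in repeat 1 and at 66.2 to 71.4 CPM in the libraries of repeat 2 that are not depleted, a log2 difference of 0.61 (SE 0.09, FDR 0.0094) between repeats with the depleted libraries left out. NDUFB2, another accessory subunit, went the other way by -0.57 (FDR 0.031).

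Among the nuclear complexes, the summed share of counts of complex II spread least over the 10 libraries. Its 4 genes summed to 0.0234% to 0.0239% of counts in the depleted libraries and 0.0278% to 0.0301% in the others. SDHB, the iron-sulfur subunit, lay between 34.5 and 47.2 CPM in all libraries. SDHD was at 66.7 CPM in mTeSR1, 68.0 CPM after 6 h and 67.0 CPM after 18 h of WNT3A, and 76.5 CPM after 6 h of CHIR99021 in repeat 1. It was at 72.4 and 73.7 CPM after 18 h of CHIR99021, against 47.2 CPM in the depleted mTeSR1 library of that repeat. The log2 change of SDHD for CHIR99021 18 h was 0.53 (SE 0.17, FDR 0.14), and 0.21 without the depleted libraries.

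In complex III, UQCRC1, a core protein, was at 220 to 271 CPM in all libraries, the depleted ones included. UQCRH, with a transcript of 687 bases, was at 86.6 and 59.1 CPM in the depleted libraries and at 150 to 181 CPM in the others. UQCRC2, the second core protein, and UQCRB, which lines the quinone site, had the lowest p-values of this complex after 6 h of WNT3A, with log2 changes of 0.17 and -0.41 (both FDR 1.00). The median log2 change of complex III after 18 h of WNT3A was 0.34, and 0.10 without the depleted libraries. The pseudogene UQCRFS1P1 was tested at 3.51 to 8.73 CPM. Its parent gene UQCRFS1, the Rieske iron-sulfur protein, was at 91.0 to 129 CPM, and reads of the copy may come from the parent, so the pseudogene's values are uncertain.

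Complex IV had a summed share of counts of 0.0675% and 0.0488% in the depleted libraries, against 0.108% to 0.143% in the others. COX6A1 was at 108, 85.3, 112 and 113 CPM in repeat 1 and at 62.0 and 41.2 CPM in the depleted libraries against 129 to 149 CPM in the rest of repeat 2. From 6 h to 18 h of WNT3A its log2 change was 0.94 (SE 0.35, FDR 0.32), and 0.51 without the depleted libraries. COX6C, a small subunit, had a log2 difference of 1.14 between CHIR99021 and WNT3A at 6 h (SE 0.45, FDR 0.69), and 0.62 without them. The ubiquitous isoforms were expressed and the tissue-restricted ones were at or near 0, except COX6B2, which passed the filter and is described below. COX4I1, COX6A1, COX6B1, COX7A2, COX7A2L, COX7B and COX8A lay at 17.7 to 237 CPM over all libraries. Of their counterparts, COX4I2 had 0 counts in all libraries, which allows up to 3 counts or 0.112 to 0.180 CPM in each, for counting error only. COX6A2 had 3 counts, COX7A1 7, COX7B2 1 and COX8C 1 over all 10 libraries. NDUFA4, named for complex I but a subunit of complex IV, was at 92.2 to 139 CPM outside the depleted libraries and 55.1 and 39.5 CPM in them.

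Complex V was led by ATP5F1B, at 781 to 888 CPM in all 10 libraries. ATP5MF, a small membrane subunit with a transcript of 774 bases, was at 31.6 and 22.8 CPM in the depleted libraries and 75.5 to 107 CPM in the others. Among the members with the lowest p-values were ATP5PD, in the peripheral stalk, ATP5MPL, a small membrane subunit, and ATP5MC2, which encodes the c-ring protein. ATP5MPL had a log2 change of 0.67 after 18 h of WNT3A (SE 0.28, FDR 0.35) and of 0.95 from 6 h to 18 h (SE 0.29, FDR 0.24), and without the depleted libraries 0.42 and 0.67. ATP5PD had 0.78 after 18 h of CHIR99021 (SE 0.25, FDR 0.15), and 0.22 without them. ATP5MC2 had 0.49 after 6 h of CHIR99021 (SE 0.28, FDR 0.95), and 0.22 without them. The read-through ATP5MF-PTCD1, at 13.6 to 22.1 CPM, shares exons with ATP5MF, so its reads cannot be fully divided from that gene.

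NDUFS4 was the nuclear member nearest to a call. It encodes an accessory subunit of the NADH-oxidising arm of complex I (ENSG00000164258, GRCh38 chr5:53560633-53683340). In repeat 1 it was at 21.7 CPM in mTeSR1, 24.3 CPM after 6 h and 35.7 CPM after 18 h of WNT3A, and 26.1 CPM after 6 h of CHIR99021. In repeat 2 it was at 16.0 CPM in mTeSR1, 16.2 CPM after 6 h and 33.0 CPM after 18 h of WNT3A, 23.8 CPM after 6 h of CHIR99021, and 26.9 and 29.04 CPM after 18 h of CHIR99021. The WNT3A 18 h libraries held its highest levels. NDUFS4 was picked for its low p-value, so that order describes the values and adds no support. For WNT3A 18 h against mTeSR1 the log2 change was 0.86 in edgeR without a block (SE 0.22, FDR 0.11), which did not pass, and 0.88 with the block (SE 0.16, FDR 0.018), which did. With both depleted libraries left out it was 0.66 (SE 0.16, FDR 0.14), and 0.72 with the block added (SE 0.15, FDR 0.037), where 1.53% of symbols were called higher. Both fits without the depleted libraries rest on 1 library of mTeSR1, so they do not measure its spread. The one with the block was chosen after seeing the data. DESeq2 (FDR 0.021) and edgeR with no filter on low counts (FDR 0.024, 1.05% of symbols called higher) also called NDUFS4. Offsets corrected for transcript length gave 0.63 (FDR 0.0505). For 18 h against 6 h of WNT3A the value was 0.76 (FDR 0.23), and 0.79 with the block (FDR 0.049, 0.57% of symbols called higher). For CHIR99021 18 h it was 0.74 (SE 0.17, FDR 0.062), which DESeq2 (FDR 0.020) and edgeR with no filter (FDR 0.040, 1.02% of symbols called higher) called. It was 0.41 with offsets corrected for length (FDR 0.12), 0.57 with no replicate block (FDR 0.30) and 0.49 without the depleted libraries.

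COX6B2 was the nuclear member with the most negative log2 change. It encodes the isoform of COX6B known from testis (ENSG00000160471, GRCh38 chr19:55349306-55354814) and was close to the floor of detection. Its counts in repeat 1 were 36 in mTeSR1, 50 after 6 h and 18 after 18 h of WNT3A, and 32 after 6 h of CHIR99021. In repeat 2 they were 39, 37 and 5 for mTeSR1, WNT3A 6 h and WNT3A 18 h, 30 after 6 h of CHIR99021, and 12 and 8 after 18 h of CHIR99021. COX6B2 was picked for its change, so the order of these counts describes the values and adds no support. On the CPM scale it went from 1.88 and 2.21 in mTeSR1 to 0.847 and 0.288 after 18 h of WNT3A, a log2 change of -1.81 (SE 0.54, FDR 0.15), and -1.62 after 18 h of CHIR99021 (SE 0.53, FDR 0.15). Without the depleted libraries these were -1.69 (FDR 0.35) and -1.06 (FDR 0.67). Neither passed in edgeR with or without the block, in DESeq2, or without the depleted libraries. COX6B1, the ubiquitous form, was at 72.5 and 31.7 CPM in mTeSR1 and 67.9 and 83.7 CPM after 18 h of WNT3A.

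**Figure D5:**
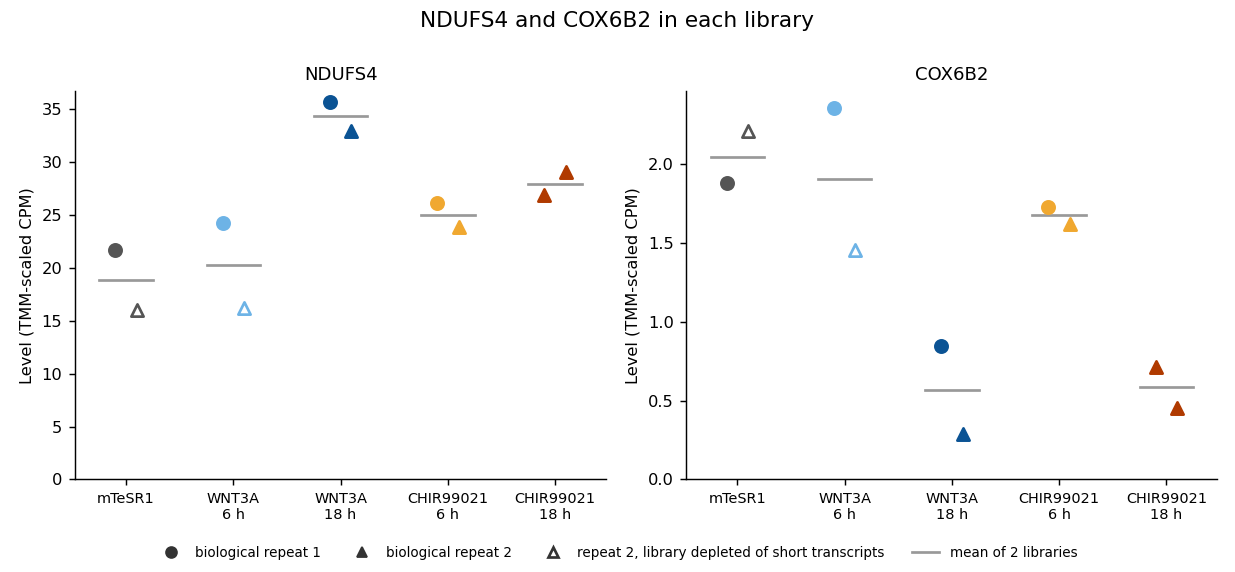
Levels of NDUFS4 (left) and COX6B2 (right) in each library, in CPM on linear axes from 0. Symbols are as for the shares of counts, and grey lines are means of 2 libraries. NDUFS4 is highest in both WNT3A 18 h libraries, at 35.7 and 33.0 CPM, and COX6B2 is below 0.9 CPM in the 4 libraries taken at 18 h.

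The other genes of the pathway were taken from lists of known functions. No gene was called in any of the 8 comparisons among 45 tested assembly factors, 28 genes of mitochondrial transcription, RNA processing and DNA maintenance, 16 nuclear regulators of mitochondrial genes, 78 genes of the mitochondrial ribosome and 16 carriers. Over all symbols the share called ran from 0.0% to 2.78% by comparison, so the lack of calls in lists of this size says little. TFAM, which packages mitochondrial DNA and starts its transcription, lay at 115 to 143 CPM in all libraries (log2 change -0.02 after 18 h of WNT3A, FDR 0.96). POLRMT, the mitochondrial RNA polymerase, lay at 193 to 246 CPM (-0.15, FDR 0.70), and LRPPRC, which stabilises mitochondrial mRNAs, at 354 to 539 CPM (-0.27, FDR 0.67). These 3 genes were chosen after their values were seen. Among 26 tested genes of the tricarboxylic acid cycle and pyruvate dehydrogenase, 1 was called, against 2.1% of all symbols for WNT3A 18 h and 2.78% for CHIR99021 18 h. PDK1, a kinase that inhibits pyruvate dehydrogenase and so the entry of glycolytic carbon into mitochondria, rose from 12.6 and 12.4 CPM in mTeSR1 to 51.0 and 66.1 CPM after 18 h of WNT3A (log2 change 2.23, SE 0.26, FDR 0.0069). It stood at 40.2 and 50.2 CPM after 18 h of CHIR99021 (1.66, SE 0.20, FDR 0.0061). Without the depleted libraries the changes were 2.21 (FDR 0.028) and 1.43 (FDR 0.018). Hypoxia-responsive genes formed a list that PDK1 is also part of, so its calls count in both lists. Of 14 tested, 2 were called for WNT3A 18 h, against 2.1% of all symbols, and 4 for CHIR99021 18 h, against 2.78%. BNIP3, a mitophagy receptor, rose by 1.35 (FDR 0.016) and 1.38 (FDR 0.017) in the same comparisons, while ADM, a vasodilator peptide, fell by 0.95 (FDR 0.022) and EGLN3, an oxygen-sensing hydroxylase, fell by 1.06 (FDR 0.036) with CHIR99021 at 18 h on the log2 scale. Without the depleted libraries none of these 3 passed, with BNIP3 at 1.22 (FDR 0.066) and 1.104 (FDR 0.23), ADM at -1.05 (FDR 0.059) and EGLN3 at -0.81 (FDR 0.27).

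Ribosomal protein genes have short transcripts too. The 82 tested genes of the cytosolic ribosome had a median log2 change of 0.40 after 18 h of WNT3A and 0.52 after 18 h of CHIR99021. None was called, against 2.1% and 2.78% of all symbols. Without the depleted libraries the medians were 0.10 and -0.10. Their summed level was 34778 and 28239 CPM in the depleted libraries and 50722 to 60789 CPM in the other 8. Their part in the nuclear members' medians was not tested.

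Promoter sequences were taken from RefSeq (GRCh38.p14) as windows from 250 bases before to 50 bases after the gene start, and 66 of the 78 tested nuclear genes matched a window. The motif of NRF1, nuclear respiratory factor 1, was searched as CGCATGCG, which reads the same on both strands, and that of ETS factors such as GABPA as CCGGAAGT on both strands. The letters of the motifs do not overlap. The NRF1 motif was in 13.6% of the windows of tested nuclear genes, against 2.13% of all 27305 windows and 3.47% of those of tested symbols. The ETS motif was in 16.7%, against 4.35% and 7.92%, and either was in 28.8%, against 6.26% and 11.0%. By complex the share with either motif was 19.4% in complex I, 33.3% in complex II, 42.9% in complex III, 3 of 12 windows in complex IV and 46.2% in complex V, with 31, 3, 7, 12 and 13 windows in all. A match describes letters and not binding. The windows of SDHD, the only one of the 66 matched genes with both motifs, of UQCRH, the most abundant member of complex III per kilobase, and of NDUFS4 are shown 5′ to 3′ on the strand of the gene, with motif letters in capitals. In SDHD the first block is the NRF1 motif and the second the ETS motif on the opposite strand. UQCRH has the ETS motif on the opposite strand, and NDUFS4 and COX6B2 had neither.
SDHD, plus strand, chr11:112086623-112086922: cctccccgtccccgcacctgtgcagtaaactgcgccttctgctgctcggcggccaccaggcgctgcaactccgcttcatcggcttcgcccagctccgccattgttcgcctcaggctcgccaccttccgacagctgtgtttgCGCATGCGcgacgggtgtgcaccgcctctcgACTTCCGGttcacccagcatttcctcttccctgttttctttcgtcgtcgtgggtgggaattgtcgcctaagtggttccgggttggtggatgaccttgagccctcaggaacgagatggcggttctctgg
UQCRH, plus strand, chr1:46303448-46303747: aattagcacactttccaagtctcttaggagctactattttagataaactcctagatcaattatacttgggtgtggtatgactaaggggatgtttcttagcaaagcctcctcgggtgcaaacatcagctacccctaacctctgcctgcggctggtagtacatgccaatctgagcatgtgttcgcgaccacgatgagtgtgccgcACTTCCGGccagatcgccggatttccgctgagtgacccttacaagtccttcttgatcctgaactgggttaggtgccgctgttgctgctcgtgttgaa
NDUFS4, plus strand, chr5:53560389-53560688: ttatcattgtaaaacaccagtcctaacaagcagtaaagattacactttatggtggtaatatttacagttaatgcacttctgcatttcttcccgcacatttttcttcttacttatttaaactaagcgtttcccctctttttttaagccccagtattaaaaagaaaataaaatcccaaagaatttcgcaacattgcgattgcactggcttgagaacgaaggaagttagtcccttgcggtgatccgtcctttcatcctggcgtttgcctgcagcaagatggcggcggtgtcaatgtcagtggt

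The remaining 101 members were not tested. Of the 95 pseudogenes, 78 had 0 counts in every library and 94 did not pass the filter, the highest of them with 20 counts over all 10 libraries. The 7 genes not tested were COX4I2, COX6A2, COX7A1, COX7B2 and COX8C, ATP5MGL with 5 counts in all, and UQCRHL with 38 counts in all, a near copy of UQCRH whose reads may belong to it. NDUFA3 has 2 identifiers and NDUFA6 has 3 in the table, and their values are sums. Nuclear copies of mitochondrial DNA took 0.0173% to 0.0392% of counts, at most 0.785% of the mitochondrial mRNA counts, and reads could be divided between the mitochondrial mRNAs and these copies.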

How the data were processed

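Messenger RNA was sequenced in 10 libraries after poly-T selection, with random hexamer priming, per the labels' protocols. The authors deposited estimated counts per gene, made with Salmon 1.8.0 on GRCh38 per the submitters' processing notes. The annotation release and any strand setting were not given in the sources used here. Salmon divides reads that fit several transcripts, so overlapping genes and near copies share counts.

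Counts were summed per symbol, rounded to whole numbers and tested in R 4.3.3 with edgeR 4.0.16 (quasi-likelihood, robust, TMM scaling, all 10 libraries, Benjamini-Hochberg adjustment over all symbols tested). The filter asked for a count of 10 at the median library size and 15 in total, and calls for an FDR under 0.05. The biological repeat was a term in comparisons of CHIR99021 18 h alone. SE is the log2 change divided by the root of F. Ratios within a repeat add 0.1 CPM to both levels. Lengths are of the longest GENCODE 29 transcript. Alternatives used DESeq2 1.42.0, other scalings, no filter, a repeat block, libraries left out, a loess correction for length with a span of 0.3, and 1 identifier per symbol. Simulated 2-fold changes were recovered for 45% of 100 genes and 4-fold changes for 96% at WNT3A 18 h, and for 29% and 90% at CHIR99021 18 h, with about the real number of genes tested.

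The pairing by repeat comes from the series' design text. Deviations of same-repeat libraries from their group means correlated with r of 0.26 to 0.59 over 6 pairs of groups. Replicates of a group differed beyond sampling noise.

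Genes were named by rule: all mitochondrial mRNAs, per comparison the nuclear members called or the 4 of lowest p, the 2 highest per kilobase of each complex, and tissue isoforms. The members and lists were chosen with earlier results of these data known. Protein sequences were not used here.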

Additional observations from a re-analysis of the deposited data

How the results depend on the processing

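Every comparison was refitted under each alternative, and the values that changed side or size follow (log2 medians and counts of members called). The replicate block gave 5 mitochondrial and 1 nuclear call for WNT3A 18 h against mTeSR1 and 1 and 1 for 18 h against 6 h of WNT3A, and changed no other call. DESeq2 gave 2 mitochondrial and 1 nuclear call for WNT3A 18 h, 3 mitochondrial calls for WNT3A 18 h against 6 h and 7 nuclear calls for CHIR99021 18 h against mTeSR1. No filter on low counts gave 1 nuclear call each for WNT3A 18 h and CHIR99021 18 h against mTeSR1.

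Without both depleted libraries, 1 mitochondrial mRNA was called for CHIR99021 18 h against WNT3A 18 h. The mitochondrial median for CHIR99021 6 h against mTeSR1 was then 0.0491. The nuclear medians were 0.0007 for CHIR99021 18 h against mTeSR1, 0.0218 against CHIR99021 6 h and -0.0318 against WNT3A 18 h. Adding the replicate block to this, chosen after seeing the data, gave 1 mitochondrial call for WNT3A 6 h, 8 mitochondrial and 1 nuclear for WNT3A 18 h against mTeSR1, and 11 mitochondrial for 18 h against 6 h of WNT3A. For 18 h against 6 h of WNT3A, 0.609% of all symbols were called lower in that fit. The fit rests on 1 library each of mTeSR1 and WNT3A 6 h, so its calls do not measure the spread of these groups.

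For CHIR99021 18 h with no replicate block, the mitochondrial median against CHIR99021 6 h was 0.29 and the nuclear medians were 0.0184 against CHIR99021 6 h and -0.0262 against WNT3A 18 h. With no replicate block and both depleted libraries left out, also chosen after seeing the data, mitochondrial medians were 0.33 against mTeSR1 and 0.29 against CHIR99021 6 h. Nuclear medians were 0.0286 against mTeSR1, 0.0252 against CHIR99021 6 h and -0.0231 against WNT3A 18 h. In this fit mTeSR1 and CHIR99021 18 h have no biological repeat in common, so the medians against mTeSR1 cannot separate treatment from repeat. The length correction moved mitochondrial medians to -1.08 for 18 h against 6 h of WNT3A and -0.71 for CHIR99021 against WNT3A at 6 h.

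Values that turned sign were MT-ND4L for CHIR99021 6 h (0.0491 without the depleted libraries, 0.007 with the replicate block added), MT-CO1 for CHIR99021 18 h against mTeSR1 (0.26 with no replicate block and without the depleted libraries) and against CHIR99021 6 h (0.0661 with no replicate block, 0.0726 also without the depleted libraries), and NDUFA6 between repeats (0.01 with 1 identifier per symbol). For MT-CO1 against mTeSR1, that fit leaves mTeSR1 and CHIR99021 18 h with no biological repeat in common. It therefore cannot separate treatment from repeat. With the block kept and the depleted libraries left out, MT-CO1 was higher by 0.45 in the repeat of CHIR99021 18 h than in the other. The cause of these turns, that of MT-CO1 included, was not tested.

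Leaving out single libraries gave 0 to 1 mitochondrial calls for WNT3A 18 h. Mitochondrial medians ran from -0.42 to 0.395 for WNT3A 6 h, from -1.07 to -0.29 for WNT3A 18 h, from -0.51 to -0.0526 for CHIR99021 18 h against mTeSR1, from -0.78 to 0.0499 for CHIR99021 6 h, from -0.94 to -0.42 for 18 h against 6 h of WNT3A, from -0.54 to -0.28 for CHIR99021 against WNT3A at 6 h and, for CHIR99021 18 h, from -0.0738 to 0.1128 against 6 h and from 0.33 to 0.39 against WNT3A 18 h. Nuclear medians ran from -0.62 to 0.19 for WNT3A 6 h, from 0.26 to 0.69 for CHIR99021 18 h against mTeSR1, from 0.0552 to 0.69 for WNT3A 18 h, from -0.0027 to 0.66 for CHIR99021 6 h, from 0.12 to 0.99 for 18 h against 6 h of WNT3A, from 0.0664 to 0.92 for CHIR99021 against WNT3A at 6 h, and, for CHIR99021 18 h, from 0.0642 to 0.48 against 6 h and from -0.0718 to 0.50 against WNT3A 18 h. Single genes that turned sign were MT-ND5 (-0.32 to 0.82), COX6A1 (-1.04 to 0.0072) and UQCRB (-1.07 to 0.0399) for WNT3A 6 h and MT-ND4L (-1.07 to 0.0499) for CHIR99021 6 h.

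Of all symbols tested, 66 were called for WNT3A 6 h, 168 with the replicate block, 249 by DESeq2, 173 with no filter, 103 with the length correction and 10 without the depleted libraries. For WNT3A 18 h the counts were 320, 751 with the block, 801 by DESeq2, 576 with no filter and 128 without the depleted libraries. For CHIR99021 6 h they were 3, 21, 65, 32 and 1 in the same order, for 18 h against 6 h of WNT3A 22, 279, 414, 275 and 0, and for CHIR99021 against WNT3A at 6 h 1, 3, 30, 9 and 0. For CHIR99021 18 h against mTeSR1 they were 424, 181 with no block, 918 by DESeq2, 793 with the length correction and 96 without the depleted libraries. Leaving out single libraries gave 53 to 75 calls for WNT3A 18 h and 10 to 522 for CHIR99021 18 h. At 2 libraries a group, simulated 2-fold changes were often missed, so a missing call does not show equal levels.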
